A study of Homo sapiens with 6 samples.

Results

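The promoters of protein-coding genes were described by 2 histone marks, H3K27Ac and H3K4me3, in control OCI-AML3 cells. OCI-AML3 is a long-established cell line from acute myeloid leukemia (AML) with heterozygous mutations of NPM1 (mtNPM1) and DNMT3A and a homozygous mutation of NRAS, and the control cells had received the guide RNA sgNeg. Per the labels the cells were cultured for 3 days after transfection, while the text of the study gives a longer time. Chromatin was crosslinked, precipitated with an antibody against 1 of the marks and tagmented with Tn5 transposase (ChIPmentation). Of the 6 libraries of the series, the sgNeg H3K27Ac and the sgNeg H3K4me3 library were used, 1 for each mark, and of the 4 peak lists these were 2. A gene was a member when the same symbol was found on the same chromosome among the protein-coding genes of GRCh37 and of GRCh38, which held for 19051 genes of chromosomes 1 to 22 and X (20176 GRCh37 records and 20056 GRCh38 genes). Each was classed by whether a peak of each list overlapped the 1 kb on either side of the gene start.

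H3K4me3, the trimethylation of lysine 4 of histone H3, is laid down by the SET1 and MLL enzymes and sits on the nucleosomes just downstream of active transcription starts, above all at promoters rich in CpG dinucleotides. H3K27Ac, the acetylation of lysine 27 of the same histone tail, is laid down by p300 and CBP and marks active promoters and active enhancers. In AML with mtNPM1, the MLL partner menin is a drug target, and the HOXA genes and MEIS1 are the best known genes kept active in this disease.

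The lists could be joined by gene name only. Peaks of H3K27Ac on chromosome 1 reached position 249218478, past the end of that chromosome in GRCh38, and peaks of H3K4me3 on chromosome 17 reached position 83201880, past its end in GRCh37. The H3K27Ac list was therefore read on GRCh37 and the H3K4me3 list on GRCh38. The name of the H3K27Ac list carries the tag OCI2 and that of the H3K4me3 list the tag OCI3, and what the tags mean is not stated. The labels of both libraries name OCI-AML3, but a different line or run behind 1 of the lists cannot be told apart from a difference between the marks. The H3K27Ac list held 327715 peaks with a median width of 358 bp that covered 220.2 Mb. The H3K4me3 list held 353628 peaks with a median width of 192 bp that covered 93.7 Mb. No read totals come with the lists, so that the depth is unknown. There was no replicate of either mark. No p-value is given, each share describes these libraries, and its 95% Wilson interval covers counting error only. Leniently called peaks made up most of both lists: 9422 H3K27Ac peaks and 81307 H3K4me3 peaks had a q-value (the p-value adjusted for multiple testing) under 1e-05, called strict below.

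Promoter sequences of each class are printed first, to show what the classes look like on the DNA. Each is the 250 bases before the start, from RefSeq on GRCh38.p14, read 5′ to 3′ along the gene's strand, with CpG dinucleotides in capitals. GOLPH3 (a Golgi phosphoprotein; chr5:32174320-32174569, minus strand, 24 CpG) stood near the top of both lists. FNBP1L (chr1:93447868-93448117, plus strand, 27 CpG) had H3K4me3 only. HENMT1 (a methyltransferase of small RNAs; chr1:108661475-108661724, minus strand, 19 CpG) and LRG1 (a secreted glycoprotein of neutrophils and liver; chr19:4540037-4540286, minus strand, 2 CpG) had H3K27Ac only, as did the histone gene H2AC4 (chr6:26033619-26033868, minus strand, 5 CpG). CD2 (a T cell surface protein; chr1:116754180-116754429, plus strand, 4 CpG) had neither mark.
GOLPH3, both marks: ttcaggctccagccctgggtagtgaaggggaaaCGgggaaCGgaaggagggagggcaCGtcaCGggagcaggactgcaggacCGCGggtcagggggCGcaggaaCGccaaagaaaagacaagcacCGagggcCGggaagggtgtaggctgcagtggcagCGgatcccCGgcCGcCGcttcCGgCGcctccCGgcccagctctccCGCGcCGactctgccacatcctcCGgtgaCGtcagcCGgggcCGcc
FNBP1L, H3K4me3 only: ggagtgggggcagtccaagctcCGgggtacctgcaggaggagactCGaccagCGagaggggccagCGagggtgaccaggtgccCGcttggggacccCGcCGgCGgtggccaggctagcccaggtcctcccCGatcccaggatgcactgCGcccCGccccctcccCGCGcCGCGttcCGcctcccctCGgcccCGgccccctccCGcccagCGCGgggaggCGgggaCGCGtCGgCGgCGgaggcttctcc
HENMT1, H3K27Ac only: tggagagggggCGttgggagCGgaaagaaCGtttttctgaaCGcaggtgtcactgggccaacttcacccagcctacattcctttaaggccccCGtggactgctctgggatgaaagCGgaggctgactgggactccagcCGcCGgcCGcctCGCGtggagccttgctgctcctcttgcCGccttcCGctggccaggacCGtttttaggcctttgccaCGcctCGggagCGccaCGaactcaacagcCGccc
LRG1, H3K27Ac only: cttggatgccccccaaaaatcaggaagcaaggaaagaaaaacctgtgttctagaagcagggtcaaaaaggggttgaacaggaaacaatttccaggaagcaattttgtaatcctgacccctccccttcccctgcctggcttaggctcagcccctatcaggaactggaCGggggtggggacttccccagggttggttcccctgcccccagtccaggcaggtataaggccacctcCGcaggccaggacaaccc
H2AC4, H3K27Ac only: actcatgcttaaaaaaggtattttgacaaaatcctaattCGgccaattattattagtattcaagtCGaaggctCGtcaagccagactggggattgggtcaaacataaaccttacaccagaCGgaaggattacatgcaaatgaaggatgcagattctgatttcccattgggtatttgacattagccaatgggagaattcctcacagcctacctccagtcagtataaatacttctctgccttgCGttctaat
CD2, neither mark: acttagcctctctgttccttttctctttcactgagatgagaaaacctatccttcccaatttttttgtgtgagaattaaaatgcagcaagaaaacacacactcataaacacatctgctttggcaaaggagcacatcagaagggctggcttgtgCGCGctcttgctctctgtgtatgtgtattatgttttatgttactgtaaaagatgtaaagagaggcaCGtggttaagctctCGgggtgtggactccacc

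Most promoters carried both marks. Of the 19051 genes, 11060 had a peak of both (58.1%, interval 57.4 to 58.8%), 1383 of H3K4me3 only (7.26%), 2340 of H3K27Ac only (12.3%) and 4268 of neither (22.4%). H3K4me3 was found at 12443 genes (65.3%) and H3K27Ac at 13400 (70.3%). The marks went together: H3K27Ac was at 88.9% of genes with H3K4me3 (88.3 to 89.4%) and at 35.4% of genes without it (34.3 to 36.6%). H3K4me3 was at 82.5% of genes with H3K27Ac and at 24.5% of those without. The same windows moved 20 kb to either side of the start held a H3K4me3 peak in 28.3% and a H3K27Ac peak in 38.9% of cases. With all peaks, each mark was thus no more frequent at starts without the other than in all moved windows. This did not hold for strict peaks. The moved windows were not split by the other mark, so these shares are not a like comparison.

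With strict peaks the picture was sharper. A strict H3K4me3 peak was at 50.7% and a strict H3K27Ac peak at 32.1% of genes. Both marks were then at 5480 genes (28.8%), H3K4me3 only at 4186 (22%), H3K27Ac only at 640 (3.36%) and neither at 8745 (45.9%). Strict H3K4me3 peaks were 5.22 times and strict H3K27Ac peaks 7.79 times as frequent at starts as in the moved windows, against 2.31 and 1.81 times for all peaks. Among genes with a strict H3K27Ac peak, 89.5% also had a strict H3K4me3 peak, whereas 56.7% of those with strict H3K4me3 had strict H3K27Ac. H3K27Ac peaks were called as broad and H3K4me3 peaks as narrow ones, so the same q-value limit need not be equally strict in both lists. The part of this in the shares was not tested. The excess of H3K4me3 only went with the larger number of strict H3K4me3 peaks. With an equal number of peaks, the 20000 most significant of each list, H3K4me3 only took 7.78%, H3K27Ac only 9.50% and both marks 33.6% of genes. At a q-value under 0.01, between the lenient and the strict limit, H3K4me3 was at 63.7% and H3K27Ac at 52.9% of genes, and the classes took 47.2% (both), 16.5% (H3K4me3 only), 5.66% (H3K27Ac only) and 30.6% (neither). Where strict H3K27Ac was missing, strict H3K4me3 was at 32.4% of genes, against 9.72% of moved windows, and where strict H3K4me3 was missing, strict H3K27Ac was at 6.82%, against 4.12%. Each strict mark was thus more frequent at starts without the other than in all moved windows, which were again not split by the other mark. Of the 1383 genes with H3K4me3 only, 525 had a strict peak, and of the 2340 with H3K27Ac only, 380.

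The single-mark classes changed with the start that was used. The records of 11851 genes had lengths within 100 bp in the 2 builds. Among these 6.02% had H3K4me3 only, against 9.29% of the 7200 genes whose records differed more. When any annotated start of a gene could count in both builds, a choice made after the values were seen, both marks rose to 65.4% of genes and H3K4me3 only fell to 3.66%. Of the 525 genes with strict H3K4me3 and no H3K27Ac, 366 (69.7%) then had both marks. Of the 380 with strict H3K27Ac and no H3K4me3, 128 (33.7%) did. These shares are not a like comparison, since the starts were unequal. Any transcript start counted for H3K27Ac, while further H3K4me3 starts came from RefSeq promoters, which held starts for 15244 genes. Other genes could not gain H3K4me3 in this way, which limits every result below that uses any start. The other mark was often close: the nearest H3K27Ac edge lay within 5 kb of the start at 64.5% of genes with H3K4me3 only, at a median of 3187 bp, and the nearest H3K4me3 edge within 5 kb at 62.1% of genes with H3K27Ac only, at 3331 bp. At the limit of 1 kb itself, the 191 genes whose nearest H3K4me3 edge lay in the last 100 bp inside it had a median percentile of 49.6, the same as the 172 genes in the first 100 bp outside. For H3K27Ac the medians were 56.2 in 165 genes inside and 46.1 in 149 genes outside. The percentile is that of the fold enrichment of the highest promoter peak among all peaks of its own list, with 100 at the top. It was used because fold values of 2 lists are not on a common scale, and many H3K4me3 peaks share 1 fold value and therefore 1 percentile.

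The marks lay differently around the start. At the start base itself 49.1% of genes were covered by H3K27Ac and 11.3% by H3K4me3. At 250 bp downstream the shares were 54.0% and 42.1%. H3K4me3 thus showed a gap over the start, with a second, lower rise of 15.6% at 500 bp upstream, and H3K27Ac ran across it. The H3K27Ac peaks were called as broad and the H3K4me3 peaks as narrow ones. The part of the calling in this contrast, and in the peak numbers below, was not tested. At 20 kb upstream the shares were 13.7% for H3K27Ac and 5.20% for H3K4me3.

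**Figure D1:**
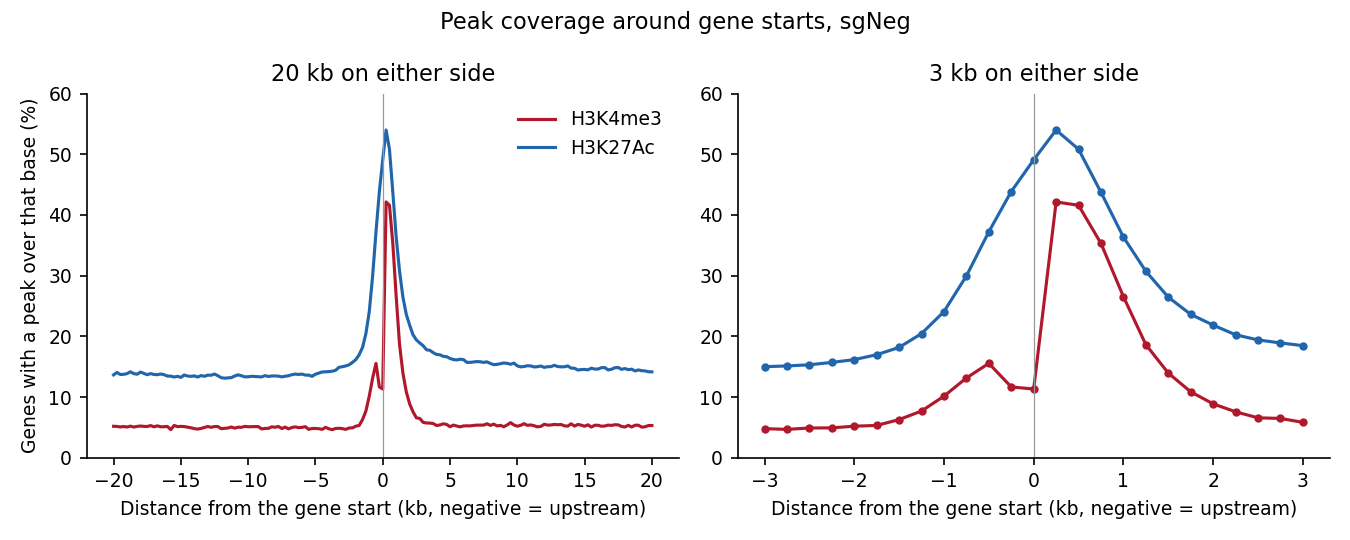
Share of the 19051 genes (vertical axis, %) with a peak over a base at a given distance from the gene start (horizontal axis, kb), for H3K4me3 (red) and H3K27Ac (blue) in sgNeg cells; the right panel enlarges the centre. H3K4me3 covers 11.3% of starts and 42.1% of bases 250 bp downstream, while H3K27Ac covers 49.1% and 54.0%.

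Among the 11060 genes with both marks, the start lay inside an H3K4me3 peak in 17.8% and inside an H3K27Ac peak in 75%, whether or not that peak was the highest. The H3K4me3 summit lay a median of 361.5 bp downstream of the start. In 43.7% of these genes 2 or more separate H3K4me3 peaks were in the window, against 10.5% for H3K27Ac. GOLPH3 is 1 of the genes whose start lay inside a peak of each mark. Its H3K4me3 peak, wide at 2407 bp, began 1 bp upstream of the start and had its summit 673 bp downstream, and its H3K27Ac peak of 4000 bp began 1123 bp upstream.

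H3K27Ac peaks were the wider ones. In genes with both marks the median width was 1706.5 bp for H3K27Ac (quartiles 905 and 2871) and 743 bp for H3K4me3 (383 and 1109). The H3K27Ac list is in the broad and the H3K4me3 list in the narrow layout of the peak caller, and the part of the calling in this difference was not tested. Of the 6902 genes with both marks, records of like length and the same strand in both builds, H3K27Ac was the wider peak in 86.6%. It reached further upstream in 83.4% and further downstream in 63.2%, and in 3.39% H3K4me3 reached further on both sides. The median reach upstream was 653 bp for H3K27Ac, while H3K4me3 began 65 bp downstream of the start. Downstream the median reaches were closer, at 1013 bp and 835 bp. When both peaks had to be strict, H3K27Ac was wider in 94.6% of 3416 genes.

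Promoter peaks without their partner were narrower and ranked lower than those with it. The median width was 230 bp for H3K4me3 alone and 687 bp for H3K27Ac alone. The median percentile was 62.6 for H3K4me3 alone against 97.7 beside H3K27Ac, and 70.1 for H3K27Ac alone against 97.3 beside H3K4me3. A percentile of 99 or more was reached by 25.5% of H3K4me3 peaks with a partner and by 4.34% of those without. For H3K27Ac the shares were 22.4% and 5.17%.

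**Figure D2:**
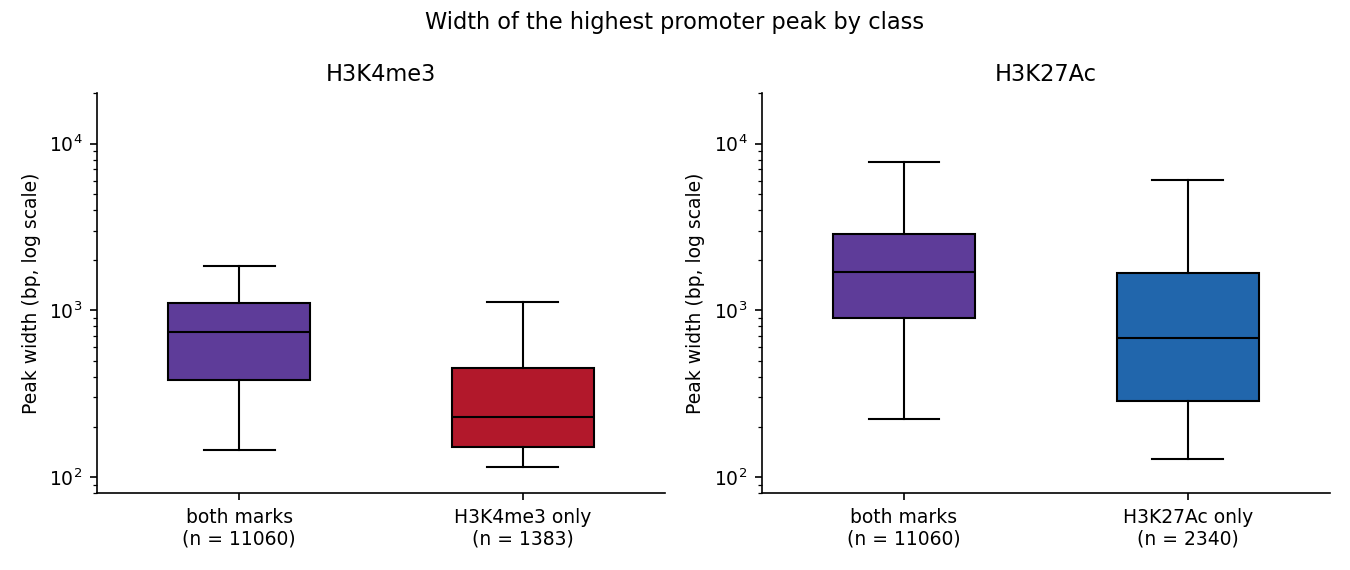
Width of the highest promoter peak (vertical axis, bp, log scale) of H3K4me3 (left) and H3K27Ac (right) in genes with both marks and with 1 mark. Boxes show the quartiles and the median, whiskers the 5th to 95th percentile; the medians are 743 and 230 bp for H3K4me3 and 1706.5 and 687 bp for H3K27Ac.

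The ranks of the marks followed each other. Across the 11060 genes with both marks, Spearman's rho was 0.56 between the percentiles and 0.47 between the widths. Between the percentiles it was 0.21 when both peaks had to be strict and 0.24 with the 20000 most significant peaks of each list. This is a description across genes, which are not independent replicates and which share 1 library for each mark. H3K27Ac was at 65.4% of genes whose H3K4me3 percentile was under 50, at 84.6% of those from 75 to 90 and at 97.9% of those at 99 or more. Its median width grew from 719.5 to 1081 and 2498 bp over the same groups. Binned the other way, H3K4me3 was at 53.7% of genes with an H3K27Ac percentile under 50 and at 95.3% of those at 99 or more.

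**Figure D3:**
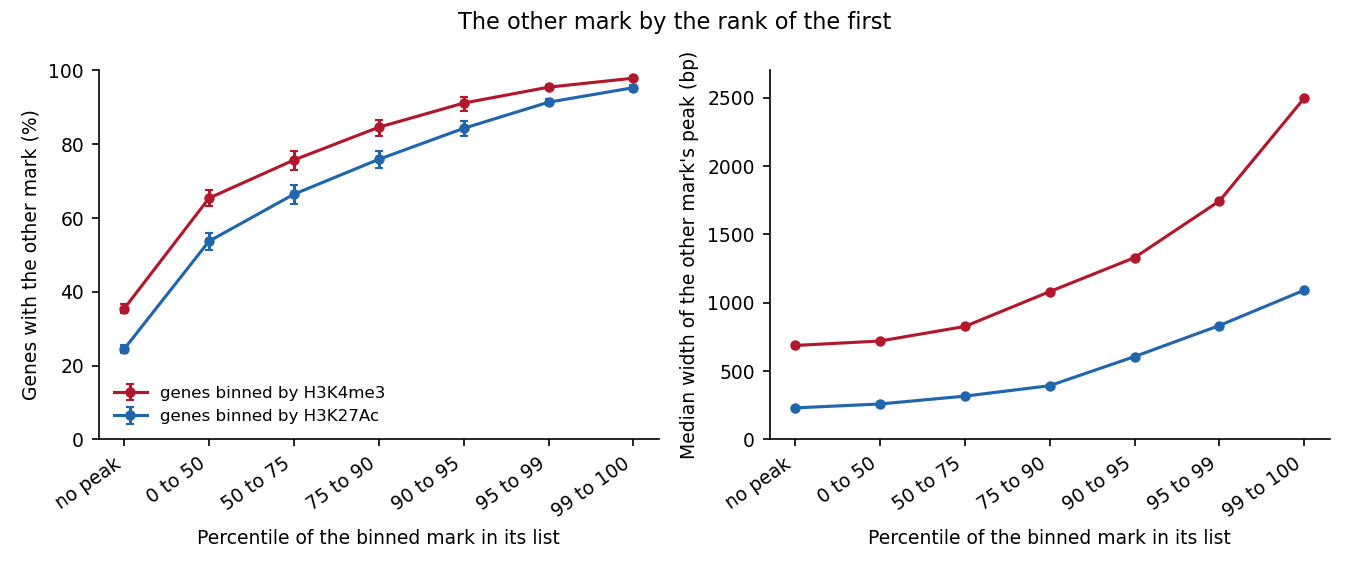
Genes binned by the percentile of 1 mark in its list (horizontal axis): share with a promoter peak of the other mark (left, %, bars are 95% Wilson intervals) and median width of that peak (right, bp). Red lines bin by H3K4me3 and blue lines by H3K27Ac; both shares climb from the lowest bin, 35.4% and 24.5%, to 97.9% and 95.3%.

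At the top, 1175 genes had a percentile of 99 or more in both lists. By the lower of the 2 percentiles the first was HNRNPU, which codes for an RNA-binding scaffold protein, with 99.99 in each list and peaks of 1104 bp (H3K4me3) and 4001 bp (H3K27Ac). GOLPH3 came next, with 99.99 in each. ARID4B, a chromatin adaptor, and GGPS1, an enzyme of isoprenoid synthesis, start head to head and share both peaks, at 99.99 and 99.97. ESYT2, a tether between the endoplasmic reticulum and the plasma membrane, followed at 99.97 and 99.98. The H3K4me3 peaks of these genes were 1104 to 2407 bp wide, and the H3K27Ac peaks 3976 to 4256 bp.

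The widest peaks belonged to other genes. The widest H3K4me3 peaks with H3K27Ac beside them were at NIPBL, the cohesin loader (5952 bp), the homeobox gene MKX (5694 bp), IRF2BP2 (5214 bp), the cell cycle kinase gene CDK6 (5125 bp) and IRF8, a regulator of monocytic fate (4991 bp). Their H3K27Ac peaks measured 16923, 27161, 29710, 8983 and 42939 bp. The widest H3K27Ac peaks at genes with both marks spanned HOX clusters: 1 of 59874 bp held the starts of HOXB2, HOXB4 and HOXB5, and 1 of 51584 bp those of HOXA9, HOXA10, HOXA11 and HOXA13. The H3K4me3 peaks at these starts were separate and measured 300 to 4078 bp, with percentiles from 80.01 at HOXB4 to 99.95 at HOXA13.

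Both marks were at NPM1 and at 13 AML genes that the study names, beside 58.1% of all genes. The study named most of them from H3K27Ac in these cells, so that their marks are given as a description. MYC, the growth regulator, had an H3K4me3 peak of 3658 bp at percentile 99.99 and an H3K27Ac peak of 5402 bp at 98.96. CEBPA, the master factor of granulocytes, had 3587 bp at 99.98 and 15908 bp at 99.80. SPI1, which codes for the myeloid factor PU.1, had 4340 bp at 99.61 and 6304 bp at 99.97. MYB, a progenitor factor, had 2898 bp at 99.81 and 21514 bp at 99.67, and GFI1, a repressor needed for neutrophils, had 4833 bp at 99.68 and 10756 bp at 99.89. These genes thus stood in the top 2% of both lists. The survival genes BCL2 and MCL1 had H3K4me3 percentiles of 99.52 and 99.98 and H3K27Ac percentiles of 98.80 and 99.94. IRF8, RXRA, PBX3 and HOXA9 had H3K4me3 percentiles of 99.36 to 99.88 and H3K27Ac percentiles of 99.03 to 99.99, and NPM1 had 99.61 and 99.62.

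MEIS1 and RARA stood apart. MEIS1, the HOX cofactor, had a weak H3K4me3 peak of 339 bp (percentile 62.6) beside an H3K27Ac peak of 19181 bp (99.44). RARA, the retinoic acid receptor, had H3K4me3 of 211 bp (49.6) beside H3K27Ac of 15330 bp (99.26) at its record start. With any annotated start the H3K4me3 percentile of RARA was 99.52, while that of MEIS1 stayed at 62.6. With strict peaks 11 of the 13 genes had both marks, beside 28.8% of all genes, and MEIS1 and RARA had H3K27Ac only.

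Percentiles at opposite ends of the lists were rare. Of the 11060 genes with both marks, 26 had H3K4me3 at percentile 99 or more with H3K27Ac under 50, and 43 the reverse. The largest excess of H3K4me3 was at ARHGEF2 (a guanine nucleotide exchange factor; 99.98 against 4.59), USP7 (a deubiquitinase; 99.41 against 4.59), SMAD4 (98.68), SMC6 (98.56) and CLP1 (98.32, each against 4.59). The records of these genes differed in length between the builds, and with any start the H3K27Ac percentile was 85.3 at CLP1 and 99.45 to 99.82 at the others. The largest excess of H3K27Ac was at ZDHHC7 (99.60 against 1.18), COQ5 (99.26), KCNAB3 (97.84), STK25 (96.48) and ZKSCAN4 (95.88, each against 1.18). With any start COQ5 and KCNAB3 kept an H3K4me3 percentile of 1.18, while the other 3 reached 98.79 to 99.22. Whether further GRCh38 starts of COQ5 and KCNAB3 were available was not tested. Any start can only add peaks to a gene or raise its percentile: of the 4268 genes with neither mark, 1169 (27.4%) gained a mark under it. The part of the annotated start in these gaps was not tested.

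The strongest peaks without a partner also often gained one with any start. By fold enrichment the first genes with H3K4me3 only were JPT1, RB1CC1 (an autophagy gene), BASP1, TRMT44 (a tRNA methyltransferase) and PPP2CB (a catalytic subunit of the phosphatase PP2A), with percentiles of 99.94 to 99.97. The records of all 5 differed in length between the builds, the nearest H3K27Ac edge lay 1391 to 3088 bp from the GRCh37 start, and with any start all 5 had both marks. Of the 5 widest strict H3K4me3 peaks in the class, at C4orf36, CDKN1B, COPS5, MROH1 and NFIC (2207 to 2586 bp), that of C4orf36 was also the peak of AFF1, a gene with both marks, that of CDKN1B (the cell cycle inhibitor p27) was shared with GPR19, and CDKN1B, COPS5, MROH1 and NFIC had both marks with any start. In all, 79 genes with H3K4me3 only and 158 with H3K27Ac only shared their peak with a gene of both marks.

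Genes with records of like length, picked after the values were seen, show the class more plainly. MROH1, FNBP1L, HGH1 and EXT2 were among those with the highest folds and H3K4me3 only. Of these 4, FNBP1L (percentile 99.41, 1441 bp) and HGH1 (99.29, 1542 bp) kept the class with any start, with the nearest H3K27Ac edge 12541 and 5653 bp away. FNBP1L, whose CpG-rich promoter is printed above, is a clear member. Its H3K4me3 peak lay over the start, from 301 bp upstream.

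Strong H3K27Ac without H3K4me3 was at HOXA7, ARID1B, SYNCRIP, PIWIL4 and SURF4, with percentiles of 99.93 to 99.99. HOXA7 lies beside the 51584 bp peak named above, with no H3K4me3 peak within 4198 bp of its start. ARID1B codes for a subunit of the BAF chromatin remodeler. Its H3K27Ac peak of 9408 bp began 172 bp upstream of the start, H3K4me3 began 1270 bp away, and with any start it had both marks, as did SURF4, a cargo receptor gene. SYNCRIP, which codes for an RNA-binding protein, had H3K4me3 at 1003 bp, just outside the window. Among the widest strict H3K27Ac peaks of the class were those at HOXA7, CYTH4 (34856 bp), TSPOAP1 (24284 bp) and PFKFB4 (19692 bp). TSPOAP1 had H3K4me3 at 1063 bp, just outside the window, and PFKFB4 had both marks with any start (H3K4me3 percentile 49.6). CYTH4 had no H3K4me3 within 6258 bp and kept the class with any start. So did HENMT1, with an H3K27Ac peak of 1264 bp over its start (percentile 99.82) and H3K4me3 9144 bp away. Whether further GRCh38 starts of CYTH4 and HENMT1 were available was not tested. LRG1 had a wider H3K27Ac peak than HENMT1, of 9784 bp (99.79).

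The classes differed in sequence, which the classing did not use. A RefSeq promoter sequence of 300 bases (250 before and 50 after the start) was matched for 13996 of the 19051 genes, with 0 of the 667 genes of chromosome 8 among them, for which GRCh38 starts other than the record's were not used either. The median number of CpG dinucleotides in it was 26 with both marks, 21 with H3K4me3 only, 12 with H3K27Ac only and 8 with neither, against 23 over all. An observed over expected CpG ratio of at least 0.6 was found in 82.5%, 62.4%, 45.4% and 39.1% of the classes. Both marks were at 20.9% of the 2155 promoters with 4 CpG or fewer and at 75.7% of the 4352 with 30 or more. H3K27Ac only ran the other way, from 18.9% to 6.14%, and H3K4me3 only changed little, from 9.10% to 6.80%.

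**Figure D4:**
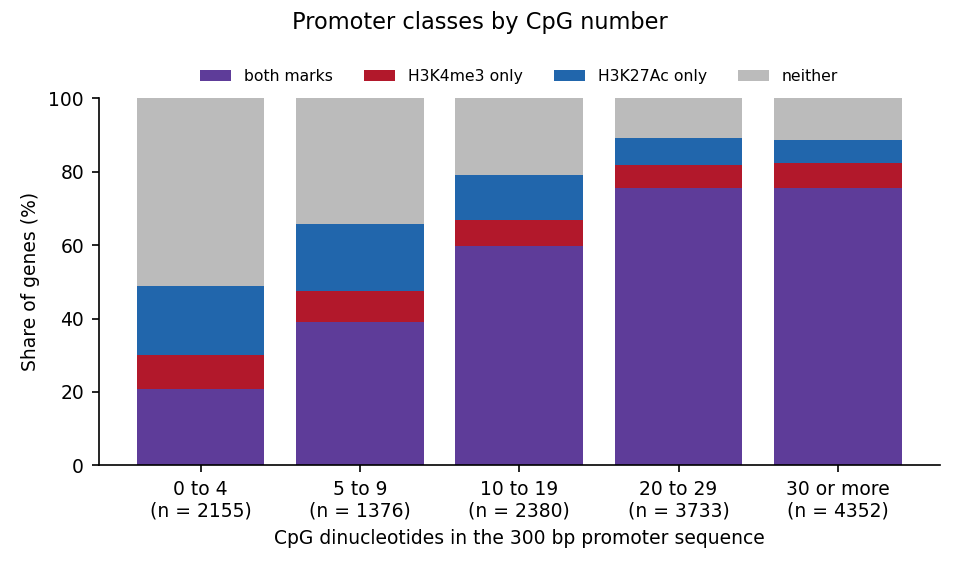
Share of genes in each class (vertical axis, %) by the number of CpG dinucleotides in the 300 bp promoter sequence (horizontal axis, number of genes in brackets). Both marks take 20.9% of the promoters lowest in CpG and 75.7% of the highest, and H3K27Ac only takes 18.9% and 6.14%.

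Motifs were searched by their letters on both strands, and a match is a description of the sequence only. The TATA box letters TATAAA were in 5.69% of promoters with both marks, 11.4% with H3K4me3 only, 13% with H3K27Ac only and 19.1% with neither, and in 9.72% of all 13996. The GC box GGGCGG was in 70.3%, 56.1%, 48.2% and 37.2%, and in 59.9% of all. The ETS letters CCGGAAG were in 20.9%, 8.44%, 6.88% and 3.67% (14.9% of all), the NRF1 palindrome in 2.53%, 1.39%, 0.53% and 0.37% (1.78%), and the CRE letters TGACGTCA in 3.37%, 1.99%, 1.54% and 1.75% (2.73%). CCAAT was spread evenly, at 37.3%, 33.5%, 35.5% and 37.8% (36.9%). The motifs that hold a CpG thus went with both marks, as CpG number itself did. With strict peaks both marks and H3K4me3 only were closer. CCGGAAG was then in 24.6% and 20.3%, GGGCGG in 74.5% and 71.5% and TATAAA in 5.15% and 4.73% of them. In the same order of motifs, strict H3K27Ac only had 14.7%, 47.4% and 14%, and neither had 4.77%, 43.7% and 15.5%. Another coding gene started within 1 kb at 23.1% of genes with both marks, 6.29% with H3K4me3 only, 10.6% with H3K27Ac only and 5.13% with neither, against 16.3% over all.

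Gene lists differed in their classes. With all peaks, housekeeping groups nearly all had both marks, beside 58.1% of all genes: 75 of 79 cytosolic ribosomal protein genes, 71 of 77 mitochondrial ribosomal protein genes and 35 of 39 proteasome genes. With strict peaks these counts were 65, 42 and 26, beside 28.8% of all genes. The cytosolic ribosomal genes RPL10, RPL36 and RPL4 had H3K4me3 only, and both marks with any start. The median H3K4me3 percentile of the list was 99.1 and the median H3K27Ac percentile 98.4, with widths of 1306 and 3064 bp. With all peaks, all 17 genes of menin, the MLL enzymes, DOT1L and their partners had both marks. With strict peaks 13 of them had both marks (beside 28.8% of all genes) and 4 had H3K4me3 only. MEN1, which codes for menin, had an H3K4me3 peak at percentile 97.7 and an H3K27Ac peak at 91.1, KMT2A had 99.56 and 99.15, and MLLT3 had 97.4 beside 14.1. Of 14 common reference genes 12 had both marks, and ACTB and PGK1 had H3K4me3 only at the record start but both marks with any start.

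**Figure D5:**
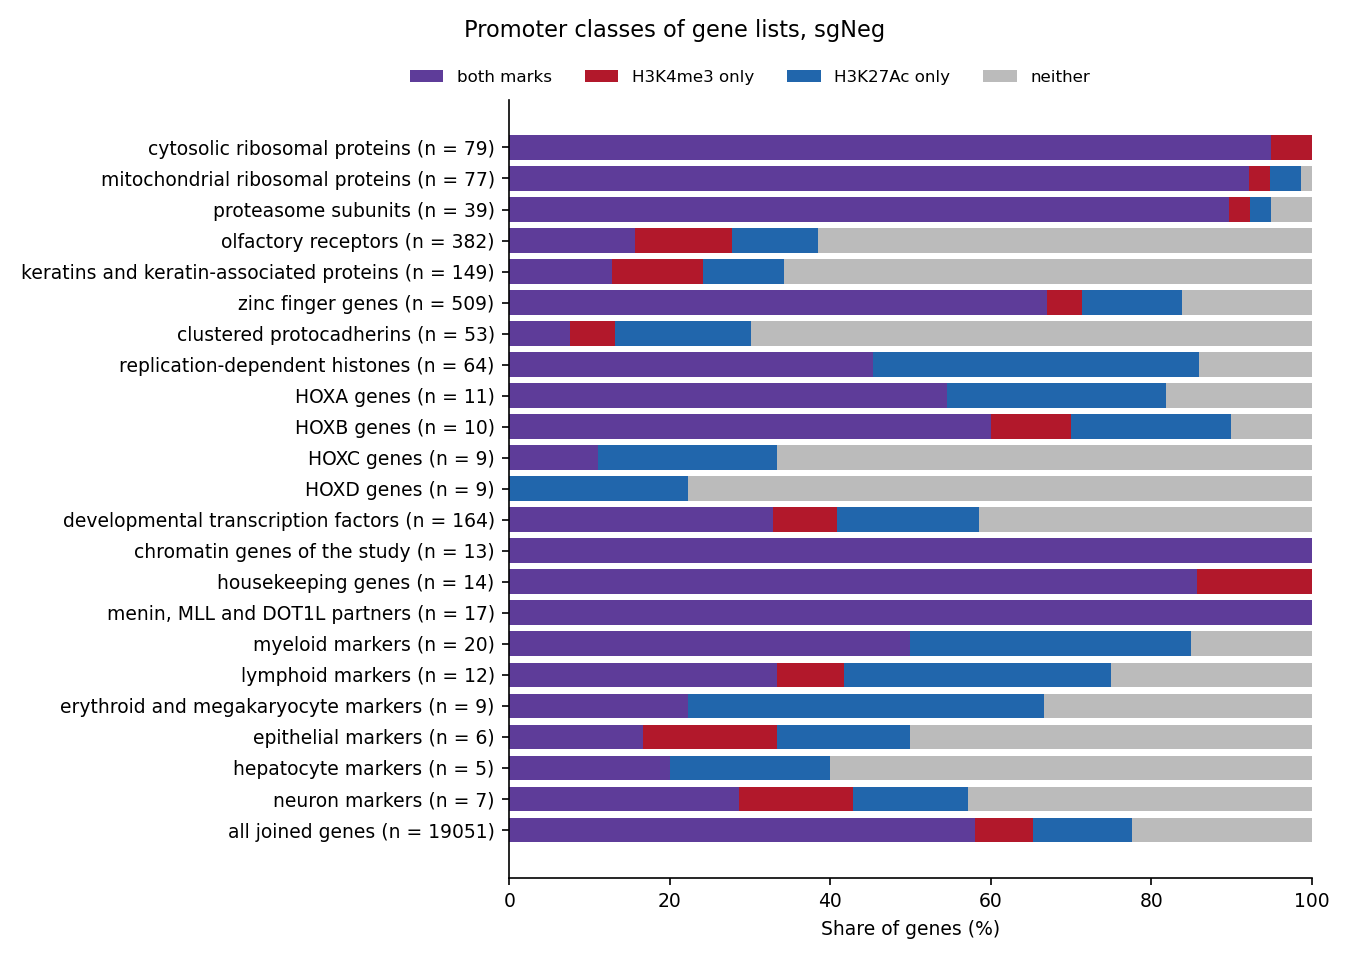
Share of genes in each class (horizontal axis, %) for the gene lists, with the number of joined genes in brackets and all 19051 genes at the foot. Housekeeping lists are almost wholly of both marks, olfactory receptors, keratins and protocadherins are mostly of neither, and the replication-dependent histones are split between both marks and H3K27Ac only.

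Olfactory receptor, keratin and clustered protocadherin genes mostly had neither mark. Neither was found at 235 of 382 olfactory receptor genes (61.5%, beside 22.4% of all genes), 98 of 149 keratin and keratin-associated genes and 37 of 53 clustered protocadherins. Both marks were at 60, 19 and 4 of them (15.7%, 12.8% and 7.55%, beside 58.1% of all genes). No gene of these lists had a strict peak of both, though 32 olfactory receptor genes had a strict H3K4me3 peak alone (8.38%, beside 22% of all genes). H3K4me3 was at 106 and H3K27Ac at 101 olfactory receptor genes, beside 65.3% and 70.3% of all genes. Since olfactory receptor genes are near-identical in part, single members are uncertain. The developmental transcription factors (PAX, SOX, FOX, GATA and similar families) had both marks at 54 of 164 genes (32.9%) and neither at 68 (41.5%, beside 22.4%). Zinc finger genes, many of which sit on chromosome 19, had both marks at 341 of 509 (67.0%, beside 58.1% of all genes). With strict peaks the share was 32.4%, near the 28.8% of all genes.

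The HOX clusters differed from one another. Both marks were at 6 of 11 HOXA and 6 of 10 HOXB genes, at 1 of 9 HOXC genes and at 0 of 9 HOXD genes, beside 58.1% of all genes, to which the shares of HOXA (54.5%) and HOXB (60%) were near. No HOXC or HOXD gene had a strict peak of either mark. Within HOXA the marks were unequal along the cluster. HOXA13, HOXA11, HOXA10 and HOXA9 had both, HOXA7, HOXA6 and HOXA2 had H3K27Ac only, HOXA5 and HOXA4 had neither, and HOXA3 had both again, with an H3K27Ac percentile of 96.2. In HOXB, HOXB9 and HOXB6 had H3K27Ac only, HOXB7 had a weak H3K4me3 peak only (percentile 49.6) and HOXB13 had neither.

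The replication-dependent histone genes, which are transcribed in S phase and whose mRNAs end without a poly(A) tail, often had H3K27Ac without H3K4me3. Of 64 genes 29 had both marks, 26 H3K27Ac only (40.6%, beside 12.3% of all genes), 0 H3K4me3 only and 9 neither. Any start gave the same counts as the record start with all peaks. With strict peaks at the record start 15 had both and 33 H3K27Ac only (beside 3.36%). Their H3K27Ac was strong, with a median percentile of 98.7 and a median width of 6520 bp. H3K4me3 was found at 29 of the 64, with a median width of 345 bp. The genes lie close together and share peaks, since the 55 genes with H3K27Ac shared 29 peaks, so that they are not independent of each other, and near-identical copies make single genes uncertain.

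At H2AC4, H3C2, H3C1 and H4C1, 1 H3K27Ac peak of 15143 bp (percentile 98.7) held all 4 starts. H3C1 had an H3K4me3 peak of 110 bp (49.6) and H4C1 of 300 bp (72.7), while the nearest H3K4me3 edge was 11562 bp from H2AC4 and 10043 bp from H3C2. The linker histone gene H1-2 had H3K27Ac of 3842 bp (99.3) and no H3K4me3 within 6929 bp, whereas H1-4 had both marks, with 887 bp at 97.7 and 5341 bp at 99.1. At the other end H2AC6 and H2BC4, which start head to head, shared an H3K4me3 peak of 2151 bp (99.36) and an H3K27Ac peak of 6520 bp (99.49). The cluster thus held strongly acetylated starts with and without H3K4me3 side by side. The promoter of H2AC4 printed above shows their sequence: of 59 matched histone promoters, 39 (66.1%) held TATAAA and 50 (84.7%) CCAAT, against 9.72% and 36.9% of all promoters, with a median of 11 CpG. Both motifs were as frequent in histone promoters with both marks (18 and 24 of 28) as in those with H3K27Ac only (16 and 19 of 22), which start close together and in part share their sequence.

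Marker genes checked the labelled cell type. Of 20 myeloid markers 10 had both marks (50%, beside 58.1% of all genes), 7 H3K27Ac only (35%, beside 12.3%) and 3 neither, and 6 had both with strict peaks (30%, beside 28.8%). The share with both marks was thus near that of all genes. SPI1, CEBPA, IRF8, ELANE, AZU1 and CTSG were these 6, the last 3 coding for granule proteins of promyelocytes. ELANE had percentiles of 99.68 (H3K4me3, 1558 bp) and 99.76 (H3K27Ac, 10314 bp). MPO, the granule peroxidase, had H3K27Ac of 14254 bp (99.3) with a weak H3K4me3 peak of 131 bp (34.4). CD33, PRTN3, CSF1R, ITGAM, LYZ, FCGR1A and FLT3 had H3K27Ac only, at percentiles from 27.03 at ITGAM to 97.7 at PRTN3, and CSF2RA, KIT and CD34 had neither. At the record start the 39 markers of lymphoid, erythroid, epithelial, hepatocyte and neuronal cells had both marks at 10 and neither at 15. Both marks were at 16.7 to 33.3% of each list, beside 58.1% of all genes. None had a strict peak of both marks, and none reached percentile 99 in either list, the highest being H3K4me3 at CD4 (97.4), where H3K27Ac was missing at the record start, and H3K27Ac at SERPINA1 (96.9). H3K27Ac only was at 33.3% of lymphoid and 44.4% of erythroid and megakaryocyte markers, so its share of 35% was not particular to the myeloid list. It was at 16.7% of epithelial, 20% of hepatocyte and 14.3% of neuronal markers. With any start, both marks were at 20% (hepatocyte) to 57.1% (neuronal) of the non-myeloid lists and at 55% of myeloid markers, beside 65.4% of all genes. Neither was then at 8.33 to 40% of the non-myeloid lists and at 10% of myeloid markers, beside 16.3%. The marker counts thus changed with the start that was used. CD2, CD8A, GATA1, KRT19, ALB and SNAP25 were among the 15 with neither mark at the record start, and the lineage genes with strict peaks of both marks there were myeloid. These markers cannot tell OCI-AML3 from another myeloid line.

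The shares differed between chromosomes. On chromosome 8, 76.5% of genes had both marks and 9.60% neither, whereas on chromosome X 20.8% had both and 64.2% neither. The moved windows differed in the same order: on chromosome 8 they held a H3K4me3 peak in 55.1% and a H3K27Ac peak in 62.1% of cases, and on chromosome X in 1.21% and 4.47%. The part of peak density along the chromosome in these classes was not tested. H3K27Ac only was most frequent on chromosome 19 (18.1%) and chromosome 6 (15.7%). Without chromosome X both marks were at 59.7% of genes and neither at 20.5%.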

How the data were processed

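The authors called peaks in each library, and the submitters' processing notes name bcl2fastq 2.17, Trimmomatic 0.33, Bowtie 1.1.2, MACS2 2.1.0 and hg38. Each deposited peak has a fold enrichment, which is the ratio of its pileup to the local background (at the summit for H3K4me3, as a mean over the peak for H3K27Ac). The −log10 p-value and −log10 q-value deposited with it were used as limits and ranks, and the deposited score was not used. The calling limit and the use of the inputs are not given in the sources used here. Gene records were those of GENCODE version 44 mapped to GRCh37 for H3K27Ac and of RefSeq on GRCh38 for H3K4me3, joined by symbol. No coordinates were converted. The record's 5′ end was the start, and the peak of highest fold within 1 kb was taken. The members and lists were chosen with earlier results of these data known. Named genes were the 13 AML genes, NPM1, markers, the 5 highest, widest and most unequal per class, and list members in the rarer classes, some of which are not reported here. Scripts (Python 3.11.15, pandas 2.3.3, numpy 2.4.6, scipy 1.17.1, matplotlib 3.10.9) were tested on simulated data. The sgNpm1A lists and inputs were not used here. Alternatives were other q-value limits, window sizes, starts, gene subsets and rank measures.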

Additional observations from a re-analysis of the deposited data

How the results depend on the processing

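No paired analysis was possible because each mark was measured in 1 library, and for the same reason no replicate could be left out. Lenient peaks, differing gene starts, peak density that varies between chromosomes and unknown depth limit the classes, and broad and narrow calling limits the comparison of widths. Of 78 recomputed summary values 39 stayed close to the reported value, which means within 1.5 times for a class share, within the 95% interval of the median or of rho for widths and ranks, and no change for the CpG number. With q under 0.01 H3K4me3 only took 16.5% and H3K27Ac only 5.66% of genes, the median widths were 839 bp (H3K4me3) and 2002.5 bp (H3K27Ac) and rho was 0.40. With q under 1e-05 the classes were 28.8%, 22%, 3.36% and 45.9%, the widths 978.5 and 2297 bp, rho 0.21 and the median CpG numbers 28, 26, 17 and 10 (in the order both marks, H3K4me3 only, H3K27Ac only, neither). With the top 20000 peaks both marks took 33.6% and neither 49.1%, with widths of 976 and 2180 bp and rho 0.24. The cause of these shifts was not tested. Windows of 500 bp gave widths of 774 and 1788 bp and rho 0.48, and windows of 2 kb gave 691 and 1601 bp and rho 0.61. Any transcript start for H3K27Ac alone gave H3K4me3 only 3.31%, a H3K4me3 width of 718 bp and rho 0.57, and any start in both builds, chosen after seeing the data, 3.66%, 725 bp and 0.60. Genes with records within 100 bp had a H3K27Ac width of 1668 bp and rho 0.60, and genes without a neighbouring start within 2 kb 702 and 1559.5 bp and rho 0.62. Taking the widest peak gave 764 bp for H3K4me3. In all of these H3K27Ac was the wider mark and rho was positive. Leaving out chromosome X, also chosen after seeing the data, moved no summary value past its limit.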
